A study of Homo sapiens with 5 samples.

Results

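The metallothionein genes MT2A, MT1A, MT1E, MT1F, MT1G and MT1X, the zinc sensor MTF1 and the zinc exporter SLC30A1 were examined in K562 cells, an established human chronic myeloid leukaemia line, after knockdown of the histone demethylase JMJD1B (current symbol KDM3B). The genes were taken by name, with every probe that was detected (detection p under 0.05) on at least 2 arrays. Of the 8 genes, 7 were measured, by 8 probes, among 11041 genes and 19105 probes tested. MT1A had no probe among the named rows. Both groups were stable K562 lines with a doxycycline-inducible short hairpin RNA (a Tet-on system), and both received 1 µg/ml doxycycline for 48 h. The hairpin was directed against JMJD1B in the knockdown (3 arrays) and was a control hairpin in the other group (2 arrays). The labels are silent on whether replicates were separate cultures and on how many hairpins or clones each group holds. P-values thus reflect only the spread among these 5 samples, which may be technical, and the knockdown and other differences between the stable lines cannot be told apart. JMJD1B itself was not analysed here.

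Metallothioneins are small, cysteine-rich cytosolic proteins that bind zinc, copper and cadmium and buffer free zinc. Their transcription follows zinc through MTF1, a zinc finger transcription factor that binds metal response elements in their promoters when intracellular zinc rises. MTF1 also drives SLC30A1 (ZnT1), the plasma membrane transporter that exports zinc, so that storage and export are usually induced together. The human MT1 and MT2A genes lie side by side in a cluster on chromosome 16, while MTF1 and SLC30A1 lie on chromosome 1.

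Promoters are shown for the 2 genes that changed, MT2A and SLC30A1, and for MT1X. MT1X lies in the same cluster as MT2A and did not pass the test. These promoters are shown because metal response elements are the sequence these genes have in common. Each is the RefSeq window (GRCh38.p14) from 250 bases before to 50 bases after the gene's start, 5′ to 3′ on the gene's strand. Capitals mark the metal response element core, searched as TGCACNC and TGCGCNC on both strands.
MT2A, chr16:56608334-56608633, plus strand: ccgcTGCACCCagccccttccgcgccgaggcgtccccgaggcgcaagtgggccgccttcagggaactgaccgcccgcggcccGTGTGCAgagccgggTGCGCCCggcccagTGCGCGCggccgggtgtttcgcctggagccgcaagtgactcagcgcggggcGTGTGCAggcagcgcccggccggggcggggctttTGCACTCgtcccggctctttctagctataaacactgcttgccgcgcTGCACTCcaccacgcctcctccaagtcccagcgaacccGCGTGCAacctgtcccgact
MT1X, chr16:56682220-56682519, plus strand: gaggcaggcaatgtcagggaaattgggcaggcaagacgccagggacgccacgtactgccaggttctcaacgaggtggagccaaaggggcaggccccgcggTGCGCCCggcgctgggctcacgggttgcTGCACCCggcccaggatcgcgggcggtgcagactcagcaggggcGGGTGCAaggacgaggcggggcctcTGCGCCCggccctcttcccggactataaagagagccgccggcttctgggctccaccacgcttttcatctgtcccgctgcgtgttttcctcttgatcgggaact
SLC30A1, chr1:211579112-211579411, minus strand: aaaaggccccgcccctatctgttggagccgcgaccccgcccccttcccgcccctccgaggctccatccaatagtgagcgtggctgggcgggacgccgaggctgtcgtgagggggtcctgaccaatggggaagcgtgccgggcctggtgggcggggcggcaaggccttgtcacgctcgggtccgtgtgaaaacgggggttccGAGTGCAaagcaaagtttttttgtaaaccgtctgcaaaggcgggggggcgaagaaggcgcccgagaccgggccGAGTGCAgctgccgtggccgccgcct

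The MT2A window held 8 cores, that of MT1X held 4 and that of SLC30A1 held 2. None was found in the window of MTF1, the only other member with a RefSeq window in the table. Those of MT1A, MT1E, MT1F and MT1G were not used here. Of all 35116 windows of this length, 29.6% held at least 1 core, 8.6% at least 2, 0.601% at least 4, and 7 windows at least 8. The core nearest to the start of MT2A began 8 bases before it, and that of SLC30A1 25 bases after it, on the opposite strand. A match is a string of letters and was not tested for binding.

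Arrays were Illumina expression beads, and values are bead intensity. Between 18230 and 18596 labelled probes were detected per array, array medians ran from 455.6 to 498.6, and the highest signals lay between 67779 and 70208, far above every member. The probe IDs printed beside the labelled values are misordered. Each of the 19144 labelled rows was therefore matched by its 5 signals to a larger deposited table of 47321 probes, in which exactly 1 probe carried the same signals, and 47 rows had that probe's ID beside them. Of 15 erythroid marker genes that define K562, 12 were measured, HBG1 among the brightest with a mean signal of 64506 in the control. ALAS2 and HBZ, 2 of these markers, were called lower in the knockdown, by 0.51 and 0.56 on the log2 scale, while the other 10 did not pass the test and the median of the 12 was -0.01. The summed signal of the 12 ran from 198317 to 207383 in the knockdown and from 207417 to 209315 in the control. Summed signals of 4 of 9 T and NK cell markers ran from 3343 to 3454 in the knockdown and from 2460 to 2729 in the control, mostly from CD3D, with no kept probe for CD3E, CD3G or CD5. Summed signals were 731 to 762 against 641 to 687 for 2 of 6 B cell markers and 972 to 1124 against 1000 to 1100 for 4 of 7 monocyte markers. For 1 of 8 fibroblast and endothelial markers they were 246 to 286 against 248 to 254. For 3 of 6 epithelial markers they were 4844 to 5553 against 5787 to 5834. Of these 3, EPCAM was called lower on its brightest probe (-0.51, limma adjusted p = 0.0042), while KRT19 (0.04) and CDH1 (-0.14) did not pass the test. The part of these markers in the results below was not tested.

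Among the members, MT2A was lower and SLC30A1 was higher in the knockdown, while MTF1 and the 4 measured MT1 genes did not pass the test. Of the 8 probes, 2 rose and 1 fell at a Benjamini-Hochberg adjusted p under 0.05 in limma, which fitted all 19105 probes on the log2(signal + 16) scale after quantile normalization. Over all probes 5.07% were called, 2.35% higher and 2.72% lower. The median log2 difference, knockdown minus control, was -0.06 over the 8 member probes and -0.001 over all probes.

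**Figure D1:**
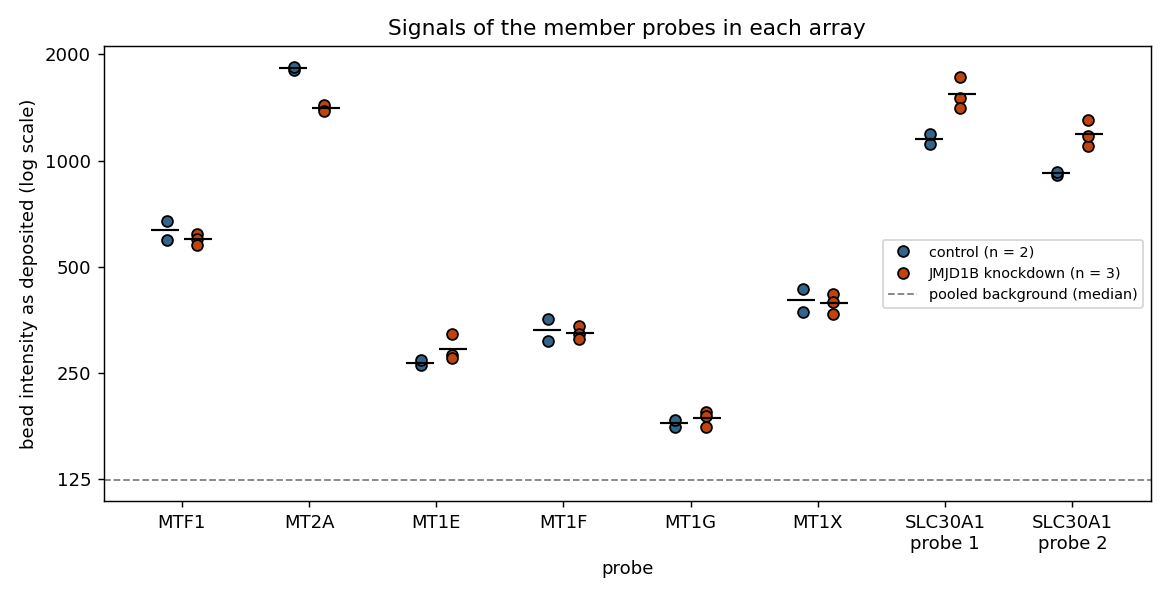
Bead intensity as deposited (log axis) of the 8 member probes in each array, with 2 control arrays (blue) and 3 JMJD1B knockdown arrays (orange); short bars are group means and the dashed line is the pooled background signal of 124.0. The groups are separate for MT2A, for both SLC30A1 probes and, narrowly, for MT1E, and the MT1 probes lie closest to the background. After normalization the groups overlap for MT1E, and they did not overlap for 37.8% of all probes.

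MTF1, the metal sensor at the head of the pathway, had signals of 619, 601 and 576 in knockdown replicates 1 to 3 and of 594 and 674 in control replicates 1 and 2. As deposited, the groups overlapped. After normalization its log2 level was 9.24 ± 0.02 (SD, n = 3) with the JMJD1B hairpin and 9.38 ± 0.11 (SD, n = 2) with the control hairpin, with every knockdown array just below both controls. Groups did not overlap for 37.8% of all probes. The difference of -0.14 ± 0.07 (standard error, SE), with a 95% interval from -0.29 to 0.003, did not pass the test (limma adjusted p = 0.25). A fall of MTF1 mRNA of up to 0.29 on the log2 scale thus lies within the interval.

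MT2A, the most widely expressed human metallothionein, was lower in every knockdown array. Its single probe, ILMN_1686664, had signals of 1412, 1435 and 1383 in the knockdown and of 1813 and 1848 in the control. The groups lay far apart relative to their spread, with mean signals of 1410 ± 26 (SD, n = 3) and 1830 ± 25 (SD, n = 2), and the signals were 11.2 to 14.9 times the pooled background of 124.0. On the normalized log2 scale the knockdown was at 10.46 ± 0.07 (SD, n = 3) and the control at 10.89 ± 0.01 (SD, n = 2). MT2A fell by 0.44 ± 0.06 (SE; 95% interval of the difference -0.58 to -0.30), a 1.35-fold lower level (limma adjusted p = 0.0046). Of the 19105 probes, 67 fell at least as far, MT2A included. In bulk RNA, fewer expressing cells and less RNA per cell cannot be told apart. The call held without any 1 array (-0.47 to -0.40, limma adjusted p from 0.016 to 0.04). It was lost when the pooled background was subtracted (-0.47, limma adjusted p = 0.059) or normexp was applied (-0.48, limma adjusted p = 0.067). The direction of MT2A rests on the probe assignment: the values printed beside its ID have a difference of 1.23, and no second probe of MT2A was measured.

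The MT1 genes, which encode further isoforms with the same metal-binding cysteines, were dim and showed no called difference. MT1X had signals of 419, 367 and 396 in the knockdown and of 372 and 434 in the control. MT1F had 341, 323 and 312 in the knockdown and 308 and 356 in the control. Both genes thus overlapped between the groups, and their control arrays differed more from each other than their group means did. MT1E had 322, 282 and 276 in the knockdown and 263 and 273 in the control, just apart as deposited. MT1G had 194, 189 and 176 in the knockdown and 176 and 184 in the control, at most 1.56 times the background. On the normalized scale the groups overlapped for MT1E and MT1G as well.

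Differences of the MT1 probes were 0.06 ± 0.06 (SE) for MT1E, -0.09 ± 0.07 for MT1F, -0.03 ± 0.06 for MT1G and -0.09 ± 0.07 for MT1X, with limma adjusted p between 0.52 and 0.80. Their 95% intervals reached down to -0.09, -0.24, -0.17 and -0.25, so that none held the MT2A difference of -0.44 (95% interval -0.58 to -0.30). With the pooled background subtracted the lower ends were -0.13, -0.40, -0.34 and -0.40, against -0.47 for MT2A (95% interval -0.65 to -0.29). Lower ends of MT1F, MT1G and MT1X then lay within the MT2A interval. Whether the MT1 genes differ from MT2A was not tested. MT1 copies are near-identical in sequence, and whether each probe tells them apart was not tested. The other 14 metallothionein genes and pseudogenes looked for, such as MT1M, MT1H and MT3, the isoform of the brain, had no named probe.

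SLC30A1, the zinc exporter, was higher on both of its probes. ILMN_1745021, the brighter, had signals of 1725, 1502 and 1408 in the knockdown and of 1116 and 1192 in the control. ILMN_2067852 had 1301, 1102 and 1178 in the knockdown and 912 and 931 in the control. The groups did not overlap on either probe, and on both knockdown replicate 1 was highest. On the normalized scale the knockdown was at 10.58 ± 0.08 (SD, n = 3) and the control at 10.23 ± 0.04 (SD, n = 2) on the brighter probe, and at 10.21 ± 0.07 and 9.91 ± 0.002 on the other.

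The difference was 0.35 ± 0.07 (SE; 95% interval 0.20 to 0.49), or 1.27-fold, on the brighter probe (limma adjusted p = 0.017). It was 0.30 ± 0.06 (0.16 to 0.44), or 1.23-fold, on the other (limma adjusted p = 0.025). The probes measure the same RNA samples and are not independent replicates. Of all probes, 229 rose at least as far as the first and 343 as far as the second. The call on the brighter probe was lost without knockdown replicate 1 (0.31, limma adjusted p = 0.059), knockdown replicate 2 (0.35, limma adjusted p = 0.074), control replicate 1 (0.32, limma adjusted p = 0.098) or control replicate 2 (0.38, limma adjusted p = 0.068), and with either background correction (0.38 and 0.38, limma adjusted p = 0.096 and 0.11). On the second probe it was lost without each array other than knockdown replicate 2 (limma adjusted p from 0.08 to 0.11), and with either background correction.

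**Figure D2:**
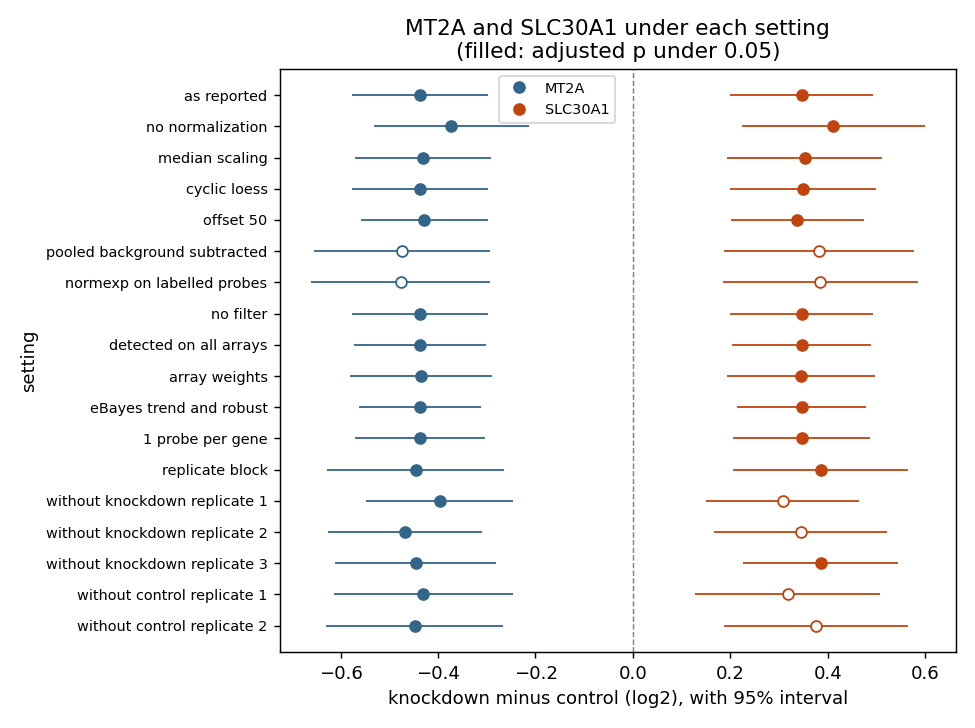
Log2 difference, knockdown minus control, with its 95% interval for MT2A (blue) and the brighter SLC30A1 probe (orange) under each setting run on their own probes, filled where the adjusted p was under 0.05; the printed probe IDs, which turn MT2A to 1.23, are not plotted. MT2A stays between -0.48 and -0.37 and SLC30A1 between 0.31 and 0.41, while 2 points of MT2A and 6 of SLC30A1 are open.

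**Figure D3:**
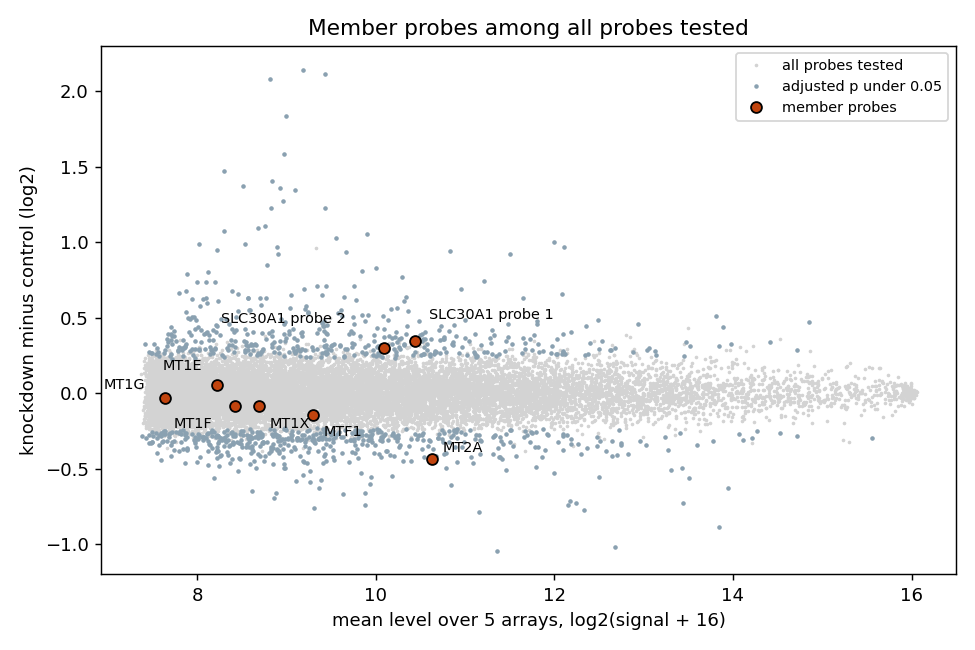
Each point is 1 of the 19105 probes tested, at its mean log2(signal + 16) level over 5 arrays and its log2 difference, knockdown minus control, with called probes in blue grey and the 8 member probes in orange. MT2A and the SLC30A1 probes lie at the edges of the cloud at their level, and the MT1 and MTF1 probes inside it.

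SLC30A1 and MT2A were also set against each other within each array. The log2 ratio of SLC30A1 over MT2A, on deposited signals plus 16, was 0.29, 0.06 and 0.03 in knockdown replicates 1 to 3 and -0.69 and -0.63 in the controls. The knockdown exceeded the control by 0.78, a 1.72-fold shift, with SDs of 0.14 (n = 3) and 0.05 (n = 2). Every knockdown array lay above both controls, but an exact two-sided permutation test of 3 against 2 arrays gives at smallest p = 0.2, which this ratio reached. As SLC30A1 was called higher and MT2A lower, the ratio restates their 2 differences and is no separate result. The shift ran from 0.70 to 0.83 without any 1 array.

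Ratios of each MT1 gene over MT2A differed between the groups by 0.49 for MT1E, 0.35 for MT1F, 0.42 for MT1G and 0.34 for MT1X. All 5 ratios share the MT2A probe as denominator. With MT1 differences near 0, the MT1 ratios mainly restate the MT2A difference and are a description with no test.

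**Figure D4:**
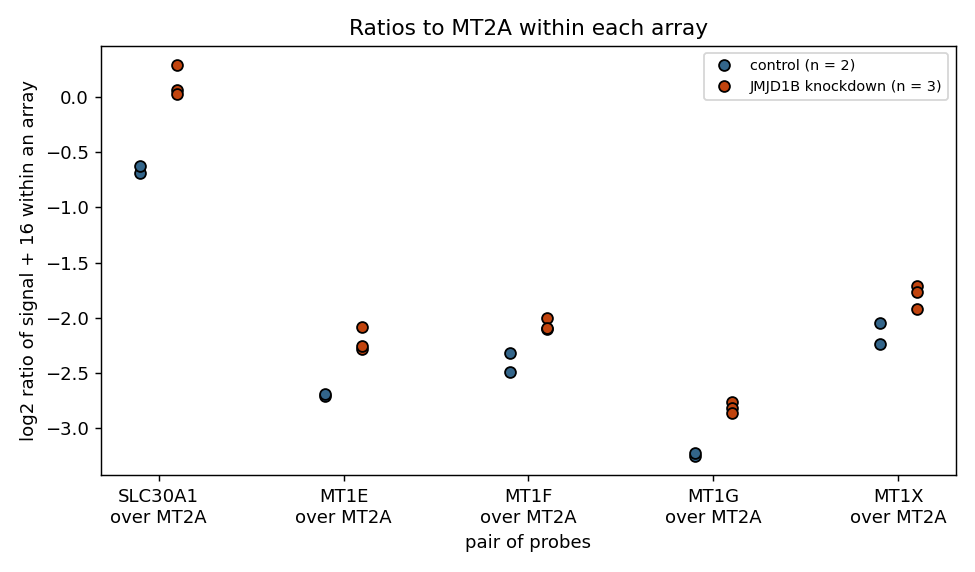
Log2 ratio of signal + 16 within each array for SLC30A1 and 4 MT1 probes over the MT2A probe, with 2 control (blue) and 3 knockdown (orange) arrays. In all 5 ratios, which share the MT2A probe as denominator, the knockdown arrays lie above both control arrays.

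Of the other zinc transporters measured, 1 passed the test. Of 10 further zinc exporters looked for, mainly of the SLC30 family, which moves zinc out of the cytosol, 6 were measured, 0 rose and 1 fell (median log2 difference -0.01). Over all 11041 genes, represented by their brightest probe, 6.27% were called, 2.56% higher and 3.7% lower, 24% had an unadjusted p under 0.05, and the median difference was -0.01. SLC30A3, which loads zinc into synaptic vesicles in neurons, had signals of 1091, 1091 and 1140 in the knockdown and 1303 and 1308 in the control, and fell by 0.30 ± 0.07 (SE; limma adjusted p = 0.033). The groups did not overlap, but the call was lost without knockdown replicate 1, knockdown replicate 2 or either control array (-0.34 to -0.25 over all arrays left out in turn, limma adjusted p from 0.043 to 0.14). SLC30A7, a transporter of the Golgi, was at -0.23 ± 0.07 and did not pass the test (limma adjusted p = 0.081).

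Of the 14 SLC39 importers, which bring zinc into the cytosol, 10 were measured and 0 passed the test in limma (median 0.04), with 3 at an unadjusted p under 0.05, near the 24% over all genes. SLC39A14, an importer of zinc and iron, was at -0.23 ± 0.07 (SE; limma adjusted p = 0.080) and SLC39A11 at 0.21 ± 0.06 (limma adjusted p = 0.084). In the fit as reported, SLC30A1 was the only measured zinc transporter of either family called higher, though its difference from the others was not tested. This rests on the threshold and the setting. Importers called were 1 without normalization and 2 with trend and robust options. The SLC30A1 call was lost without some single arrays (limma adjusted p up to 0.098).

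**Figure D5:**
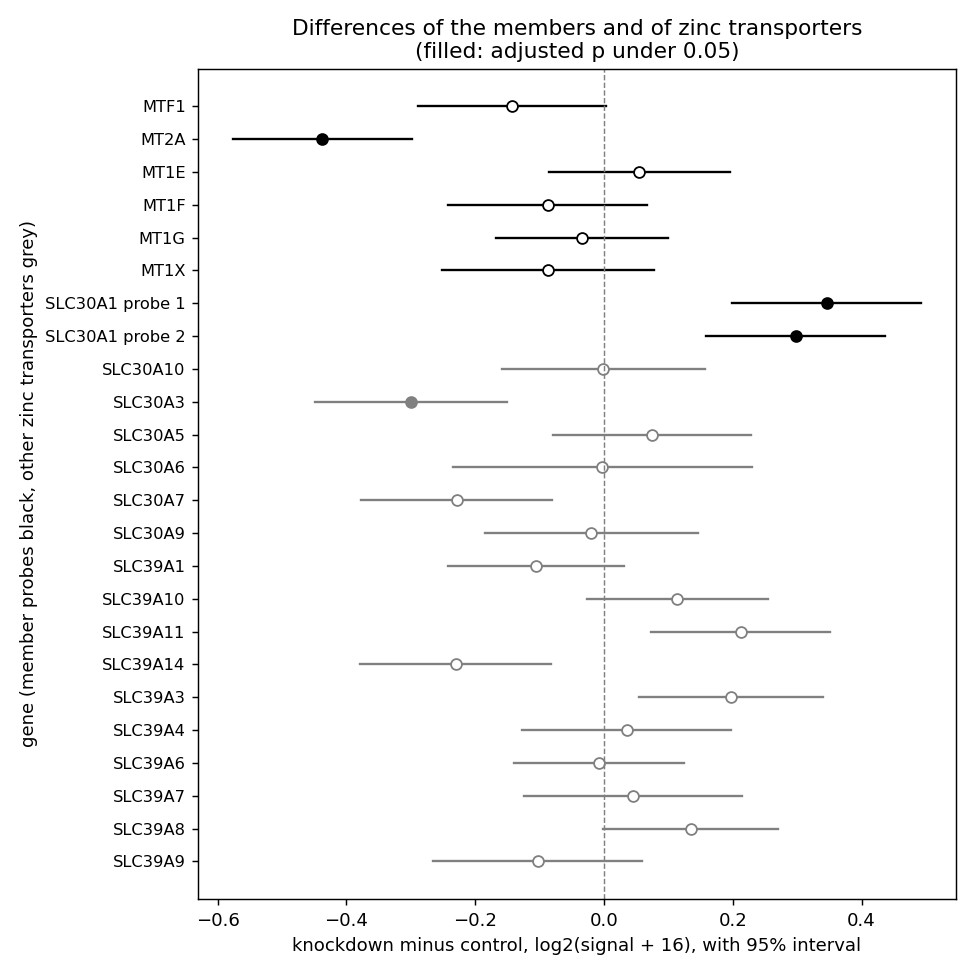
Log2 difference, knockdown minus control, with its 95% interval for the 8 member probes (black) and for the brightest probe of 16 other zinc transporters (grey), filled where the adjusted p was under 0.05. MT2A and SLC30A3 lie below 0 and both SLC30A1 probes above 0 among the filled points.

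Genes that cells induce under metal and oxidative stress, some of them together with metallothioneins, held calls in both directions. Of 21 looked for, 17 were measured, and 1 was called higher and 3 lower, against 2.56% and 3.7% over all genes. An unadjusted p under 0.05 in limma was found for 8 of the 17, against 24% over all genes. Groups did not overlap for 8 genes lower and 1 higher in the knockdown, against 2644 and 1974 of 11041 genes. The lower counts include CRYAB, which met the detection filter only through the control, and were not tested. The median was -0.04, against -0.01 over all genes, with 7 differences positive and 10 negative. Of the 3 called lower, 2 were detected on every array, BAG3 and GCLM. BAG3, a co-chaperone of HSP70, had signals of 1982, 1835 and 1820 in the knockdown and 2205 and 2245 in the control, and fell by 0.33 ± 0.06 (SE; limma adjusted p = 0.011). CRYAB, a small heat shock protein, had signals of 175.5, 148.2 and 143 in the knockdown and 199.6 and 194.8 in the control, all close to the background of 124.0. It was detected on 1 of 3 knockdown arrays and both control arrays and met the detection filter only through the control, where it was higher, so its fitted difference of -0.39 (limma adjusted p = 0.015) is given as a description. GCLM, a subunit of the ligase that starts glutathione synthesis, fell by 0.38 ± 0.09 (limma adjusted p = 0.042) and was at -0.17 on its second probe (limma adjusted p = 0.25). SLC7A11, the cystine importer, rose by 0.26 ± 0.06 (limma adjusted p = 0.043). HMOX1, the haem oxygenase that cadmium strongly induces, was at -0.30 ± 0.08 and did not pass the test (limma adjusted p = 0.071); it lies outside the rule for named genes and was chosen after its value was seen. None of these calls held without every array. That of BAG3 was lost without knockdown replicate 2 or either control (limma adjusted p up to 0.07). The difference of CRYAB, a description, is not counted among these calls. GCLM lost its call without each array other than control replicate 2 and was at -0.21 without control replicate 1, and SLC7A11 lost it without each array (0.23 to 0.30, limma adjusted p from 0.076 to 0.18). The number called in the list was 0 with either background correction.

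None of the genes around the metallothionein cluster on chromosome 16 passed the test. Of 22 looked for, 11 were measured, 0 were called in limma, and 3 had an unadjusted p under 0.05. With 6.27% of all genes called and 24% at an unadjusted p under 0.05, these 2 counts are near those over all genes. The differences leaned lower, with 8 negative and 3 positive (27.3%), against 46.8% positive over all genes. Groups did not overlap for 6 genes lower and 1 higher in the knockdown, against 2644 and 1974 of 11041 genes. This lean was not tested. The median was -0.08. BBS2, a ciliary protein gene next to the cluster, was at -0.19 ± 0.06 (SE; limma adjusted p = 0.11), and NUDT21, of an mRNA cleavage factor and 3 coding genes away, at 0.33 ± 0.12 (limma adjusted p = 0.15). NUP93, a nucleoporin gene that adjoins the cluster on the other side, was at 0.09 ± 0.06 (limma adjusted p = 0.45). The fall on the MT2A probe was thus larger in size than any difference among its measured neighbours, a description that was not tested.

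Genes whose profile over the 5 arrays was most like that of MT2A were EHHADH, FOXL2NB, SPRR2F, TWNK and PUS7, with root mean square differences of 0.02 to 0.03 between profiles centred on their own mean. Their log2 differences lay between -0.45 and -0.38. EHHADH is an enzyme of peroxisomal fatty acid oxidation, TWNK the mitochondrial DNA helicase and PUS7 a pseudouridine synthase. For SLC30A1 they were ISY1, STOM, UBE2E3, ABCB4 and POTEF, with differences of 0.31 to 0.35 and the same range of root mean square values. STOM encodes stomatin, a red cell membrane protein, and ISY1 a splicing factor. With 5 arrays in 2 groups, likeness follows the group difference, and these names describe the arrays only.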

How the data were processed

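The 5 arrays carry cRNA of K562 cells from 0.55 µg total RNA, per the labels' protocols. The deposited intensity values are linear, were neither background corrected nor normalized as far as the values show, and come from GenomeStudio 2009.2, per the submitters' processing notes. A larger deposited table gives the same signals with a detection p-value each, per the file headers. Its 5 signal columns match no sample and served only as a key to probe IDs and, pooled, as a background (median signal 124.0 of 24817 probes undetected on every array). Over 2294 genes with 2 probes, Pearson's r of their levels across genes, which are not independent, was 0.43 under that table's IDs and 0.0 under the printed ones. This check compares levels and not differences between the groups. Symbols came from the platform annotation (14581 probes with 1 gene, 2 with several, 4561 with none), updated by gene identifier through RefSeq (GRCh38.p14) for 14574.

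Signals plus 16 were put on a log2 scale and quantile normalized, and probes detected on at least 2 arrays were fitted with group as the only term in limma 3.58.1 (R 4.3.3), with 10.1 degrees of freedom including the prior. Fold changes keep the background and understate dim genes. The number of arrays limits the precision (median SE 0.07). Genes in the text are all members, up to 4 called genes of each list by p, or, where none was called, the 2 with the smallest p. SLC30A7, HMOX1, NUP93, the cell type markers and the genes of like profile were named outside this rule. Members and lists were chosen with earlier results of these data known. Alternatives covered normalization, offset, background, filter, weights, variance model, probe choice, the replicate block and each array left out.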

Additional observations from a re-analysis of the deposited data

How the results depend on the processing

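MT2A and SLC30A1 kept their direction under the 17 alternatives run on their own probes. Their calls were lost with the pooled background subtracted (-0.473 and 0.381) and with normexp over the labelled rows (-0.477 and 0.384), and SLC30A1 lost its call without 4 of the 5 arrays. Without any 1 array MT2A ran from -0.467 to -0.397, SLC30A1 from 0.307 to 0.385 and its second probe from 0.273 to 0.336. Differences near 0 changed sign for MT1G without normalization (0.045) and for MT1X (0.012) and MT1F (0.011) without control replicate 2, never as a call; without any 1 array those ran from -0.185 to 0.012 and from -0.186 to 0.011. The IDs printed beside the labelled values turn MT2A to 1.228 and leave 0 members lower. The ratio of SLC30A1 over MT2A stayed between 0.704 and 0.862, including quantile normalized values, a setting chosen after seeing the data.

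Over all probes, 449 were higher and 519 lower. These became 791 and 153 without normalization (83.8% of calls higher against 46.4%, with the median of all probes at 0.07), 130 and 92 with the background subtracted, 95 and 52 with normexp, and 176 to 239 and 131 to 216 without any 1 array. Member probes called higher were 0 with the background subtracted and with normexp, as were those called lower. With 1 probe per gene 1 was higher, since SLC30A1 then has 1 probe, and 0 to 1 were without any 1 array. Called genes per list changed as follows. Without normalization they were 0 for zinc exporters, 1 for importers, 0 for copper handling, 2 for metal stress, 4 for glucocorticoid response and 1 for chromosome 16 neighbours. With either background correction, exporters, copper, metal stress and glucocorticoid lists had 0. With trend and robust options exporters, importers and copper had 2 each and the glucocorticoid list 5. With 1 probe per gene, copper had 2 and the glucocorticoid list 3, which had 2 with median scaling and with an offset of 50. Without any 1 array exporters and neighbours had 0 to 1, metal stress 0 to 2, and copper and glucocorticoid lists 0. The cause was not tested.

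The shared replicate numbers are not said to pair the samples, and deviations of same-numbered arrays correlated at -0.219 and -0.091. With the replicate block, 194 probes were higher and 145 lower, and 1 member probe was higher (the second SLC30A1 probe, at 0.285, was not). Exporters, copper, metal stress and glucocorticoid lists had 0. Replicate 3 has only a knockdown array, which the block takes up. The block thus gave the differences found without that array (MT2A -0.446 and SLC30A1 0.385 in both). Signals close to background limit the MT1 genes, for which no change was called and any change would be understated here.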

Other observations

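Copper, the other metal that metallothioneins bind, has its own transporters and chaperones, and 1 of their genes passed the test. All 14 genes looked for were measured, 0 rose and 1 fell, near the 6.27% called over all genes, with a median log2 difference of 0.01. SCO2, a copper chaperone of cytochrome c oxidase assembly, had signals of 743, 633 and 682 in the knockdown and 798 and 807 in the control, and fell by 0.29 ± 0.06 (SE; limma adjusted p = 0.029). The call was lost without each 1 of the 5 arrays (-0.31 to -0.25, limma adjusted p from 0.06 to 0.12).

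Glucocorticoids are known to induce MT2A in human cells, so genes of that response were read beside it. Of 16 looked for, 15 were measured, 1 rose and 0 fell, near the 6.27% called over all genes. Of the 15 differences 12 were positive, against 46.8% over all genes, with a median of 0.06 on the log2 scale, a description with no test. TSC22D3, the glucocorticoid-induced leucine zipper, had signals of 1747, 1647 and 1675 in the knockdown and 1291 and 1398 in the control. It rose by 0.26 ± 0.06 (SE; limma adjusted p = 0.036), and its second probe was at 0.23 (limma adjusted p = 0.099). MT2A was at -0.44, and whether the glucocorticoid response bears on it was not tested. The TSC22D3 call was lost without each 1 of the 5 arrays (0.23 to 0.30, limma adjusted p from 0.073 to 0.16).

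Of the 8 member probes, 7 had a printed ID whose row differed between the groups in the same direction as the probe itself and by an amount that differed by at most 0.0315, such as 0.32 beside 0.35 for SLC30A1. MT2A was the exception, with 1.23 beside -0.44. By the match of signals, the rows beside the printed IDs hold the signals of other probes. Why 7 of the 8 differences lie so close to those of the members was not tested. The direction of MT2A, the exception, rests on that match.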
